A study of Mus musculus with 4 samples.

Results

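The myeloid C-type lectins described here are 10 genes of the mouse, Clec4d, Clec4e, Clec4n, Clec7a, Clec5a, Clec10a, Clec4a1, Clec4a2, Clec4a3 and Clec12a, taken by name from the 55335 genes of the deposited tables. C-type lectin receptors are membrane proteins with a carbohydrate-recognition fold, by which macrophages, monocytes, neutrophils and dendritic cells sense fungi, mycobacteria and dying cells. One set of them signals through the kinase Syk and the adaptor Card9 towards NF-kB and the release of cytokines, either by a motif of their own or through a partner chain such as Fcer1g or Tyrobp. Another set carries inhibitory motifs that recruit the phosphatases Ptpn6 and Ptpn11 and holds such responses back. In skin, receptors of both kinds are known from macrophages, monocytes, dendritic cells and infiltrating neutrophils.

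RNA was sequenced from cells that the labels call CD4+ T cells of skin, in 4 libraries, 2 of each of 2 genotypes. The knockout libraries (knockout 1 and knockout 2) came from Mettl3fl/fl;Cd4-Cre mice, in which floxed Mettl3, encoding the catalytic subunit of the m6A RNA methyltransferase, is recombined where Cre is driven by the Cd4 promoter. The control libraries (control 1 and control 2) came from Mettl3fl/fl mice, which carry the floxed alleles without Cre. Mice of both genotypes were 8 to 12 weeks old and had 5% imiquimod cream, a Toll-like receptor agonist that gives a psoriasis-like dermatitis, on the back for 5 days, at 15 or 62.5 mg a day, and the amount for each mouse is not stated. Cd4-Cre is known for its activity in developing T cells. Dermal cell suspensions were stained for CD4 and CD45, no sorting gate is stated, and cDNA was primed with oligo-dT and amplified before sequencing. The labels do not say how many mice gave a library, so the tests measure the spread between these libraries, which may be technical.

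Libraries held 3614418 to 4537006 counted fragments. Markers of macrophages and monocytes outweighed those of T cells in all 4, at 2.93% to 3.06% of fragments in the knockouts and 1.09% to 2.12% in the controls, while T cell markers made up 0.0158% to 0.0301% in the knockouts and 0.0473% to 0.115% in the controls. The 2 lists are not of equal length, and shared exons of their genes could not be counted. All 14 T cell markers were tested, and all had a negative log2 fold change (median -1.38), where 56.9% of all genes had a positive one. Both knockouts lay below both controls for 7, against 11.2% of all genes. Without control 2 the median was -2.07 and all 14 had both knockouts below control 1, where 31.5% of all genes did. Cd4 had 420 and 9 fragments in knockouts 1 and 2, and 777 and 0 in controls 1 and 2. Control 2 stood apart. Keratinocyte markers made up 2.61% of its fragments, against 0.109% to 0.227% in the other libraries, and 4064 of the 12434 genes tested had no fragment in it, against 221 to 860 in the others. Mettl3 had 121 and 158 fragments in the knockouts and 195 and 49 in the controls, a comparison that says nothing about recombination, because no label names the exon that was floxed. Log2 fold changes of the lectins that rest on control 2 are also given without it.

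Of the 10 genes, 9 lie on chromosome 6 (GRCm38). A row of 6 of them spans 368 kb, from 122921848 to 123289870, in the order Clec4a1, Clec4a3, Clec4a2, Clec4n, Clec4d and Clec4e. Clec4d (plus strand) and Clec4e (minus strand) are neighbours that face each other with their 3′ ends 6523 bases apart. Clec12a and Clec7a lie further along the chromosome, 96.3 kb apart, Clec5a lies at 40574894 to 40585821, and Clec10a is on chromosome 11 (70156197 to 70170834).

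The stretches upstream of the transcription start are shown for Clec4d and Clec4e, the neighbours with the largest log2 fold changes between genotypes, and for Clec4a1, the lectin with most fragments. They are the 250 bases before the start in RefSeq (GRCm38.p6), at chr6:123261857-123262106 (plus strand), chr6:123289872-123290121 (minus strand) and chr6:122921598-122921847 (plus strand). Capitals mark GAGGAA, the core bound by the myeloid factor PU.1, on either strand (TTCCTC when read on the other).
Clec4d: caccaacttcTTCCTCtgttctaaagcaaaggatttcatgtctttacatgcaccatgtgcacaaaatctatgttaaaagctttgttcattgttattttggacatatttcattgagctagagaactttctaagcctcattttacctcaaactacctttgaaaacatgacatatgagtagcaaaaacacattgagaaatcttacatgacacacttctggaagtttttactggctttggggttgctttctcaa
Clec4e: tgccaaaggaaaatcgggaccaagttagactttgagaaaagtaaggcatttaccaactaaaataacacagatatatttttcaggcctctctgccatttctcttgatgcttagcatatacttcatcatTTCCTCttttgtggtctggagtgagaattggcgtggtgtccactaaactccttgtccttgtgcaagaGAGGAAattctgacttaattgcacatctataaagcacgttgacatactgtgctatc
Clec4a1: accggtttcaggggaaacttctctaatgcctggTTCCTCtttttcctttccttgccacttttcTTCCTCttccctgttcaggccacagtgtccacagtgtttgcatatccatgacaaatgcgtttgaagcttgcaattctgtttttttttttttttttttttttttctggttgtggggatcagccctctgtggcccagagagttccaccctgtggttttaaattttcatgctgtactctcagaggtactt

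The motif began 240 bases before the start of Clec4d, 123 and 56 bases before that of Clec4e, and 217 and 187 bases before that of Clec4a1. RefSeq windows were matched for 8 of the 10 genes (not for Clec10a and Clec4n), with 10 windows in all, and 8 of these windows, of 7 genes, held the motif, against 23.3% of the 32851 windows of the same length. For an AP-1 site (TGANTCA), an NF-kB site (GGG and CC with any 5 bases between), an interferon regulatory factor site (GAAA and GAAA with any 2 bases between) and a TATA box (TATAAA), the windows with a match numbered 1, 1, 0 and 3 of 10, against 6.75%, 45.8%, 2.98% and 12.4% of all windows, both strands being searched and matches allowed to overlap. The windows of Clec7a overlap each other and hold the same copy of GAGGAA, and those of Clec4a3 overlap too. The 10 windows are therefore not independent. These matches describe letters and not binding.

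How many fragments could be counted differed between the genes. Exons that several transcripts share received none in these tables. Clec4a1 has a single annotated transcript, and all 6 of its exons were counted. In Clec4n, Clec7a, Clec4a3 and Clec4e few exon bases belong to 1 exon entry alone, 106 of 1420, 361 of 2638, 161 of 1327 and 160 of 4965. In Clec4e the counted entries overlap shorter entries of other transcripts. Levels are therefore compared between libraries for each gene, in fragments scaled to library size with TMM factors (CPM), and never between genes. A low value of Clec4n, Clec7a or Clec4a3 here does not mean that the gene is little expressed.

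None of the lectins passed the test between genotypes, and Clec4d and Clec4e lay further apart between genotypes than between libraries of a genotype. Clec4d was at 188.4 ± 13.4 CPM in knockouts and 27.1 ± 12.6 in controls, and Clec4e at 73.4 ± 8.14 and 12.6 ± 8.45 (SD, n = 2 each). Of the 10 genes, 8 passed the filter on low counts, and 0 of these 8 were called at an adjusted p under 0.05 by edgeR, DESeq2 or limma-voom, where edgeR called 0% of the 12434 genes tested in either direction. At an unadjusted p under 0.05 there was 1 of the 8 by edgeR (Clec4d), 2 by DESeq2 and 2 by limma-voom (Clec4d and Clec4e in both), all on the higher side. Over all genes edgeR had 109 on the higher side (0.877%) and 78 on the lower (0.627%) at that threshold, DESeq2 had 168 (1.35%) and 259 (2.08%), and limma-voom had 185 (1.49%) and 51 (0.41%). After adjustment limma-voom called 0%, and DESeq2 called 4 higher (0.0322%) and 13 lower (0.105%). All 8 had a positive log2 fold change, where 56.9% of all genes did. Both knockouts lay above both controls for 3 of the 8 (Clec4d, Clec4e and Clec4a2), where 19.5% of all genes did so, and both lay below for 0, against 11.2%. The same 3 genes had both knockouts above control 1, the comparison without control 2, where 28.8% of all genes did. The median log2 fold change of the 8 was 0.99 beside 0.20 over all genes, and 0.25 beside 0.05 without control 2.

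**Figure D1:**
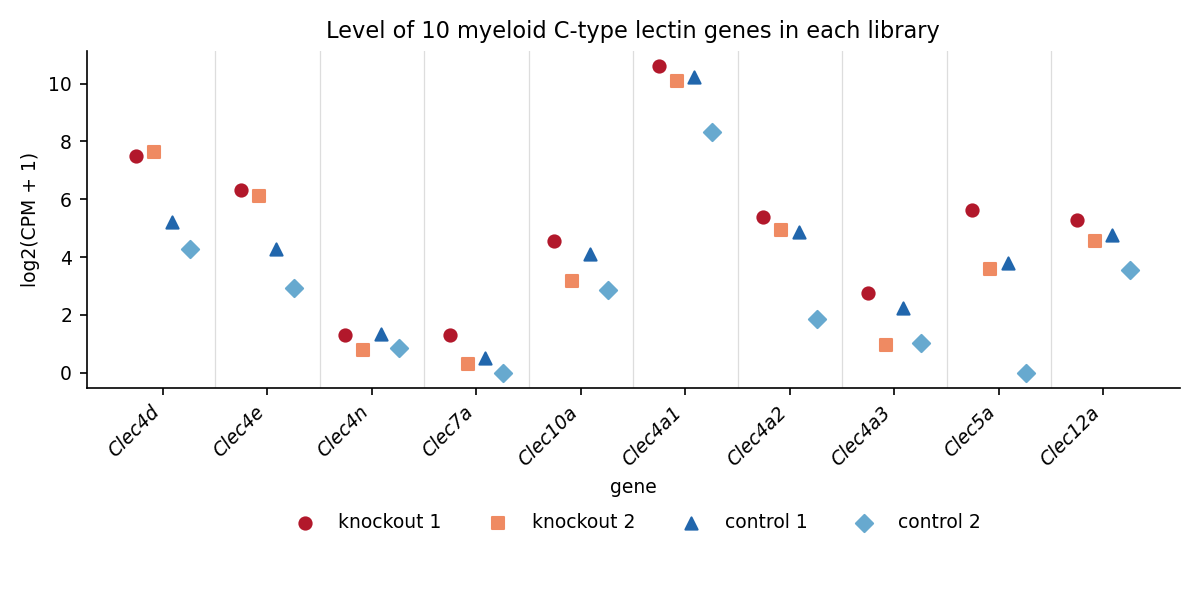
Level of each of the 10 lectin genes, as log2(CPM + 1), in knockouts 1 and 2 and controls 1 and 2, with 1 point per library. Clec4d and Clec4e have both knockouts well above both controls, Clec4a2 has knockout 2 only just above control 1, and control 2 is the lowest library for Clec4d, Clec4e, Clec10a, Clec4a1, Clec4a2, Clec5a, Clec12a and Clec7a.

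Clec4d and Clec4e encode activating receptors. In the mouse, Clec4e (Mincle) binds glycolipids of mycobacteria and a nuclear protein released by dying cells and signals through Fcer1g, and Clec4d (MCL) forms complexes with it and raises its display at the cell surface. Clec4d had 717 and 837 fragments in the knockouts, or 179.0 and 197.9 CPM, and 165 and 69 in the controls, or 36.0 and 18.2 CPM. The groups did not overlap, and the lower knockout lay well above the higher control. Its log2 fold change was 2.79 (standard error 0.78, 95% interval 0.83 to 4.76, edgeR quasi-likelihood test, adjusted p = 0.9997). Among the genes with a positive log2 fold change, Clec4d ranked number 8 by p. With 1 library left out its log2 fold change lay between 2.38 and 3.43.

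Clec4e had 317 and 286 fragments in the knockouts, or 79.1 and 67.6 CPM, and 85 and 25 in the controls, or 18.6 and 6.60 CPM. Here too the groups did not overlap, and the log2 fold change was 2.54 (standard error 1.08, 95% interval -0.20 to 5.28, adjusted p = 0.9997 by edgeR). This value lay between 1.97 and 3.53 with 1 library left out. The neighbours kept a similar proportion, with 2.26 and 2.93 Clec4d fragments per Clec4e fragment in the knockouts and 1.94 and 2.76 in the controls.

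Both genes had their difference in exons of protein-coding transcripts as well as in retained introns. The last exon of Clec4d (123274658 to 123275265), which held 88.4% of its fragments, had 624 and 736 in the knockouts and 152 and 69 in the controls. The retained-intron entry of Clec4d (123267722 to 123268143) had 93 and 101 fragments in the knockouts and 13 and 0 in the controls. In Clec4e, the last exon (123281789 to 123283696) had 146 and 104 fragments in the knockouts and 36 and 18 in the controls, and the retained-intron entry (123286208 to 123288989) had 171 and 182, and 49 and 7. Without retained-intron exons the log2 fold change was 2.75 for Clec4d and 2.35 for Clec4e.

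**Figure D2:**
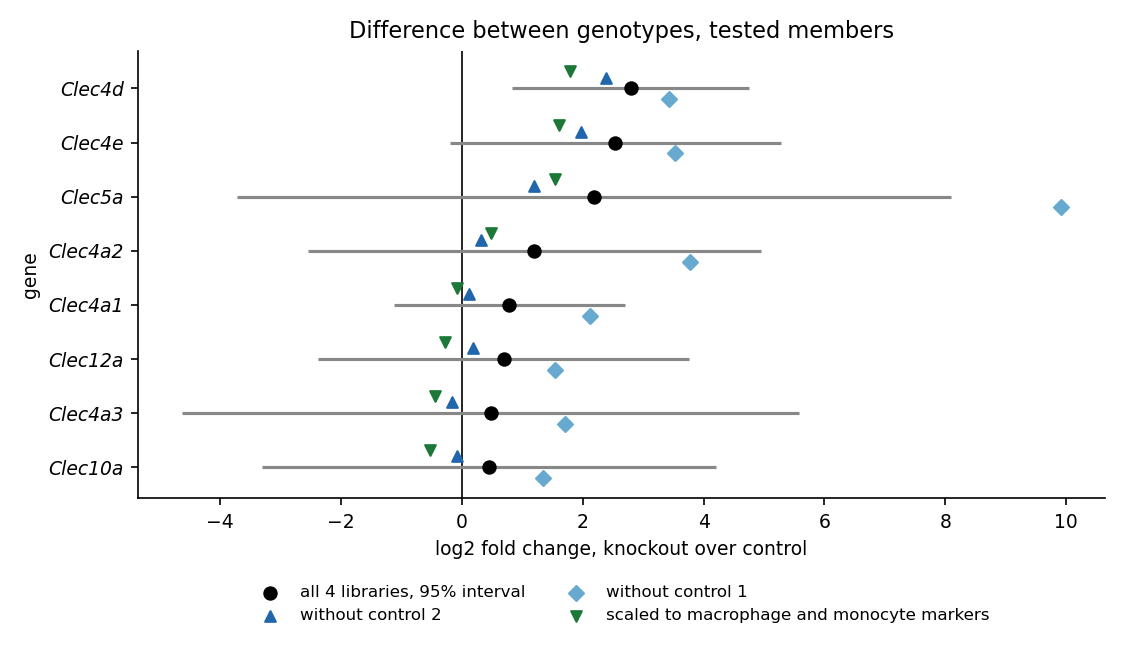
Log2 fold change of knockouts over controls for the 8 lectins tested, with black points and grey bars for the edgeR estimate and its 95% interval, and coloured points for the estimate without control 2, without control 1, and with libraries scaled to the summed macrophage and monocyte markers. Clec4d and Clec4e stay at 1.61 or more in these settings, while Clec4a1, Clec12a, Clec4a3 and Clec10a move below 0 under the marker scaling, and Clec4a3 and Clec10a also without control 2.

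Clec5a encodes an activating receptor of myeloid cells that pairs with Tyrobp and is known as a receptor for flaviviruses. It had 192 and 47 fragments in the knockouts, or 47.9 and 11.1 CPM, and 59 and 0 in the controls, or 12.9 and 0 CPM. The groups overlapped, since knockout 2 lay below control 1. With 0 fragments, the level in control 2 could be as high as 0.792 CPM (3 fragments), for counting error only. Clec5a had a log2 fold change of 2.19 (standard error 2.34, adjusted p = 0.9997 by edgeR), and 1.19 without control 2 or 0.77 without knockout 1.

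Clec7a and Clec4n encode the receptors for fungal beta-glucan (Dectin-1) and for fungal mannan (Dectin-2), and neither could be tested. Clec7a had 6 and 1 fragments in the knockouts and 2 and 0 in the controls. Clec4n had 6 and 3 in the knockouts and 7 and 3 in the controls, all in an exon of a transcript annotated for nonsense-mediated decay. The groups overlapped for both, and at these counts no difference was detectable.

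Clec4a1, Clec4a2 and Clec4a3 belong to the DCIR family of the Clec4 cluster, of which Clec4a2 (DCIR) carries an inhibitory motif and restrains dendritic cells in the mouse. Clec4a1 was the lectin with most fragments, 6245 and 4561 in the knockouts and 5551 and 1206 in the controls. Its level was 1559 and 1078 CPM in the knockouts, against 1212 and 318.3 CPM in the controls. Control 1 lay between the knockouts and control 2 stood alone below them, and the log2 fold change was 0.79 (standard error 0.76, 95% interval -1.13 to 2.699, adjusted p = 0.9997 by edgeR) and 0.11 without control 2.

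With all its exons counted, Clec4a1 also shows how fragments spread along a transcript in each library. Its last exon (122933778 to 122934619) held 64.9% and 74.3% of its fragments in the knockouts (exact 95% intervals 63.7 to 66.1 and 73.0 to 75.6) and 69.7% and 76.5% in the controls (68.5 to 70.9 and 74.0 to 78.9). Its first exon held 10.9% and 7.28% in the knockouts and 9.37% and 9.20% in the controls. Exon 5 held 6.57% and 5.72% in the knockouts and 6.09% and 1.41% in the controls, so that control 2 was low there. Knockout 1 had the smallest share in the last exon, and in each genotype the intervals of the 2 libraries for that exon did not overlap.

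Clec4a2 had 163 and 125 fragments in the knockouts, or 40.7 and 29.6 CPM, and 128 and 10 in the controls, or 27.9 and 2.64 CPM. Knockout 2 and control 1 were close, and only control 2 was far below. The log2 fold change was 1.20 (standard error 1.48, adjusted p = 0.9997 by edgeR), and 0.32 without control 2. Clec4a3 had 23 and 4 fragments in the knockouts and 17 and 4 in the controls, and its log2 fold change was 0.48 (standard error 2.02), -0.16 without control 2 and -1.30 without knockout 1. Its libraries overlapped fully.

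Clec12a, which carries an inhibitory motif and recognises uric acid crystals of dead cells, had 151 and 95 fragments in the knockouts, or 37.7 and 22.5 CPM, and 121 and 41 in the controls, or 26.4 and 10.8 CPM. Knockout 2 lay below control 1, and the log2 fold change was 0.69 (standard error 1.21, adjusted p = 0.9997 by edgeR), or 0.18 without control 2. Control 2 differed from the others in where these fragments lay. Retained-intron exons held 19.2% and 2.11% of Clec12a fragments in the knockouts (exact 95% intervals 13.3 to 26.4 and 0.256 to 7.40), and 4.96% and 80.5% in the controls (1.84 to 10.5 and 65.1 to 91.2). The last exon, of a protein-coding transcript (129363894 to 129365303), had 83 and 68 fragments in the knockouts, and 78 and 0 in the controls.

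Clec10a, a receptor for galactose-type sugars known from dermal macrophages and dendritic cells, also had most of its fragments in retained introns in control 2. It had 91 and 34 fragments in the knockouts, or 22.7 and 8.04 CPM, and 74 and 24 in the controls, or 16.2 and 6.34 CPM. Retained-intron exons held 34.1% and 85.3% of them in the knockouts (exact 95% intervals 24.5 to 44.7 and 68.9 to 95.05) and 37.8% and 100% in the controls (26.8 to 49.9 and 85.8 to 100). A single retained-intron entry (70169736 to 70170006) had almost the same count everywhere, 26 and 29 in the knockouts and 26 and 24 in the controls. The exon of a protein-coding transcript at 70166655 to 70168004 had 57 and 5 in the knockouts and 46 and 0 in the controls, and so separated knockout 1 and control 1 from knockout 2 and control 2, across the genotypes. The log2 fold change of the gene was 0.45 (standard error 1.49, adjusted p = 0.9997 by edgeR), and -0.08 without control 2 and -0.46 without knockout 1.

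**Figure D3:**
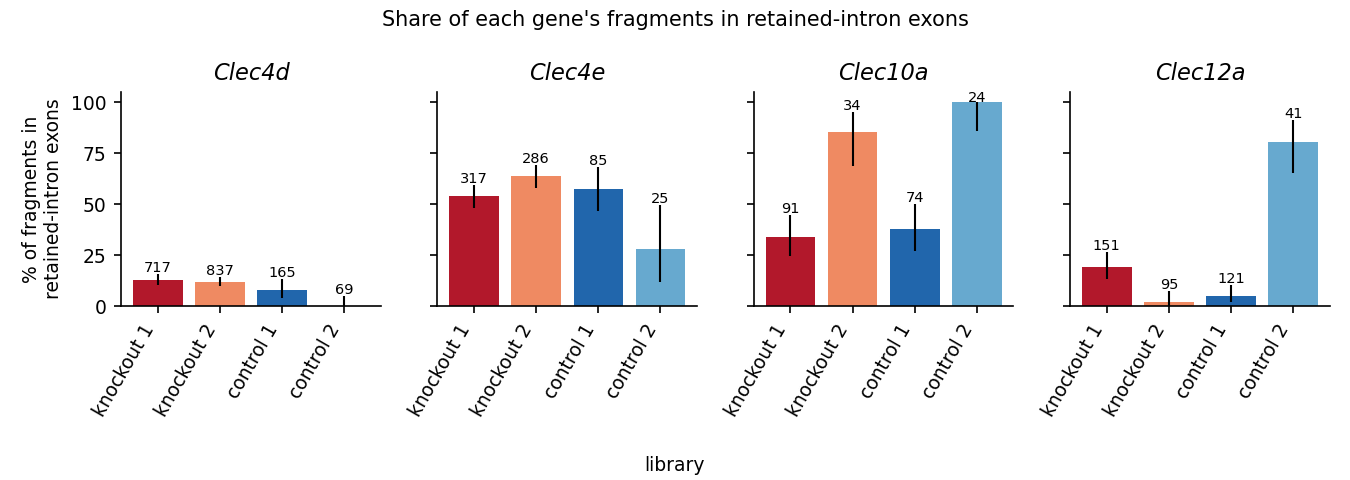
Percentage of the fragments of Clec4d, Clec4e, Clec10a and Clec12a that lay in exons annotated only in retained-intron transcripts, by library, with exact 95% intervals as black lines and the number of fragments above each bar. Control 2 stands at 100% for Clec10a and 80.5% for Clec12a, knockout 2 at 85.3% for Clec10a, and Clec4d is at 13.0% or less in every library.

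The summed level of the 10 genes and that of myeloid markers had the same order over the 4 libraries. The sum was 1975 and 1417 CPM in the knockouts and 1355 and 364.8 CPM in the controls, most of it from Clec4a1. Macrophage and monocyte markers summed to 32996 and 30170 CPM in the knockouts and 21043 and 10438 CPM in the controls. Of their 20 genes, 17 were tested, and all 17 had a positive log2 fold change (median 1.12), where 56.9% of all genes did. Both knockouts lay above both controls for 12 and above control 1 for 13, against 19.5% and 28.8% of all genes. Lyz2, the lysozyme of myeloid cells and the gene of this list with most fragments, was at 14351 and 10809 CPM in the knockouts and 9378 and 3876 CPM in the controls. The markers Ctss and Aif1 were listed at 0 in all 4 libraries. In these bulk libraries, a difference in the share of myeloid cells and a difference in lectin RNA per cell cannot be told apart.

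Neutrophil markers, which matter for Clec4d, a receptor also known from neutrophils, summed to 4862 and 2655 CPM in the knockouts and 1919 and 763.4 CPM in the controls. Most of these fragments came from Mxd1, a transcription factor that is not limited to neutrophils, at 3041 and 1455 CPM in the knockouts and 1282 and 251.6 CPM in the controls. Of the 12 genes, 7 were tested (median log2 fold change 1.55), where 56.9% of all genes were positive. Of these 7, 5 had a positive and 2 a negative value (Mmp9 and Hdc). Both knockouts lay above both controls for 4 (S100a8, Mmp8, G0s2 and Mxd1) and below both for 1 (Hdc), against 19.5% and 11.2% of all genes. S100a8, a calcium-binding protein of neutrophils and inflamed skin, had 172 and 313 fragments in the knockouts and 53 and 73 in the controls. Mmp8, a collagenase of neutrophils, had 6119 and 2719 in the knockouts and 1570 and 877 in the controls, and Hdc, which makes histamine, had 330 and 622 in the knockouts and 713 and 631 in the controls. Ly6g and S100a9, also of this list, were listed at 0 in all 4 libraries. A 0 here need not mean that a gene was not expressed, since exons that several transcripts share received no fragments. Cxcr2 had 13 and 3 fragments in the knockouts and 0 and 1 in the controls, and Csf3r had 19 and 0, and 0 and 0. Dendritic and Langerhans cell markers summed to 1955 and 1035 CPM in the knockouts and 2350 and 431.1 CPM in the controls, so the groups overlapped. Mast cell and basophil markers summed to 139.3 and 374.2 CPM in the knockouts and 172.0 and 97.4 CPM in the controls, fibroblast markers to 5741 and 5907 and to 12306 and 2880, and B cell and endothelial markers to at most 37.1 CPM in every library. The part of any cell type in the lectins' levels was not tested beyond the ratios that follow.

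Set against the macrophage and monocyte markers, only Clec4d and Clec4e among the 10 genes kept both knockouts above both controls. Clec4d had 5.42 and 6.56 fragments per 1000 marker fragments in the knockouts and 1.71 and 1.74 in the controls. Clec4e had 2.40 and 2.24 per 1000 in the knockouts and 0.882 and 0.632 in the controls. Both were also higher per 1000 fragments of neutrophil markers, at 36.8 and 74.5 in the knockouts against 18.8 and 23.9 in the controls for Clec4d, and at 16.3 and 25.5 against 9.67 and 8.64 for Clec4e. Clec4a1 had 47.2 and 35.7 per 1000 macrophage and monocyte fragments in the knockouts and 57.6 and 30.5 in the controls, with overlap. Clec4n, with few fragments, was lower in both knockouts on this scale. On the neutrophil scale, whose marker sum was itself higher in both knockouts, 5 lectins were lower in both knockouts than in both controls. They were Clec4n, Clec4a3, Clec10a, Clec12a and Clec4a1. The share of all genes higher or lower in both knockouts was not computed for either marker scale. It is therefore not known whether the numbers of lectins higher or lower on these scales are unusual. Per 1000 neutrophil marker fragments, Clec12a had 7.75 and 8.46 in the knockouts and 13.8 and 14.2 in the controls. Clec10a had 4.67 and 3.03 in the knockouts and 8.42 and 8.30 in the controls. Clec4a1 had 320.6 and 406.1 in the knockouts and 631.3 and 417.0 in the controls. With libraries scaled to the macrophage and monocyte markers in place of TMM, the median over all genes moved to -0.75. Under this scaling the log2 fold change was 1.79 for Clec4d and 1.61 for Clec4e (lowest adjusted p of a lectin 0.8227 by edgeR). Of the 8 lectins, 4 were positive, with a median of 0.20, and the share of all genes that were positive under this scaling was not computed.

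**Figure D4:**
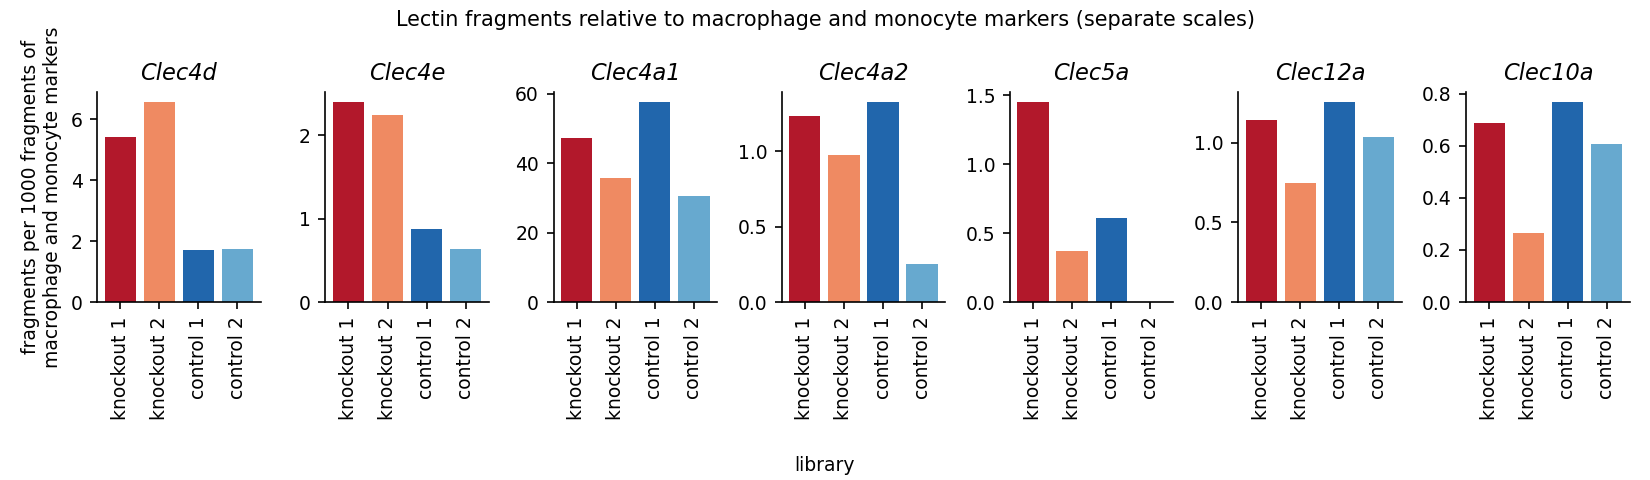
Fragments of 7 lectins per 1000 fragments of the macrophage and monocyte markers, with 1 bar per library and a separate vertical scale for each gene, starting at 0. Clec4d (5.42 and 6.56 in knockouts, 1.71 and 1.74 in controls) and Clec4e keep the knockouts above the controls, and the other 5 genes overlap.

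The partners that carry lectin signals into the cell did not pass the test either. Of 14 signalling genes, 10 were tested and 9 had a positive log2 fold change, where 56.9% of all genes did. Both knockouts lay above both controls for 3, against 19.5% of all genes. Of the 10, 0 were called by edgeR, DESeq2 or limma-voom. At an unadjusted p under 0.05 there were 0 by edgeR, 1 by DESeq2 and 0 by limma-voom, where 187, 427 and 236 of all 12434 genes were. The median log2 fold change was 0.76, or 0.44 without control 2. Most fragments of this list came from Bcl10 and Malt1, which form the complex downstream of Card9, and Plcg2, a phospholipase activated by Syk, which does not rank their expression. Bcl10 was at 712.1 and 512.3 CPM in the knockouts and 480.5 and 475.7 CPM in the controls. Malt1 was at 403.8 and 155.6 CPM in the knockouts and 205.0 and 154.2 CPM in the controls. Plcg2 was at 512.9 and 180.6 CPM in the knockouts and 282.5 and 9.77 CPM in the controls. The groups did not overlap for Bcl10, but overlapped for Malt1 and Plcg2. Pik3cd, a kinase subunit, had 15 and 39 fragments in the knockouts and 1 and 0 in the controls. Hcst, an adaptor of activating receptors, had 11 and 26 in the knockouts and 11 and 108 in the controls. Among the chains that the lectins use directly, Syk had 589 and 267 fragments in the knockouts and 252 and 0 in the controls, Fcer1g had 69 and 22, and 38 and 0, and Tyrobp had 13 and 14, and 16 and 0. These 3 genes, chosen after their values were seen, were all at 0 in control 2.

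The inhibitory phosphatases had overlapping groups. Ptpn6 was at 29.5 and 19.6 CPM in the knockouts and 24.4 and 3.96 CPM in the controls. Inpp5d was at 43.9 and 4.49 CPM in the knockouts and 46.3 and 0.528 CPM in the controls. For both, control 2 was lowest. Control 1 resembled knockout 1 for Inpp5d and lay between the knockouts for Ptpn6. Ptpn11 did not pass the filter on low counts.

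Of the cytokines and mediators that these receptors are known to induce, 13 were tested. Both knockouts lay above both controls for 9, against 19.5% of all genes, and above control 1 for the same number, against 28.8%. None was called by edgeR, DESeq2 or limma-voom. At an unadjusted p under 0.05 there were 1 by edgeR, 0 by DESeq2 and 4 by limma-voom, where 187, 427 and 236 of all 12434 genes were. Of the 13, 12 had a positive log2 fold change, where 56.9% of all genes did, and the median was 1.22, or 0.88 without control 2. Il1b, a cytokine of inflamed skin, was at 3812 and 2527 CPM in the knockouts and 1549 and 993.3 CPM in the controls, with the log2 fold change at 1.32 (standard error 0.53) and, leaving out control 2, at 1.03. Cxcl2, a chemokine that attracts neutrophils, was at 542.4 and 283.4 CPM in the knockouts and 143.0 and 72.6 CPM in the controls (1.94, standard error 0.69, or 1.52 without control 2). Csf3, which drives the making of neutrophils, was at 820.7 and 641.8 CPM in the knockouts and 308.9 and 47.5 CPM in the controls (2.04, standard error 0.96, or 1.24 without control 2). Ccl4 was at 1804 and 973.7 CPM in the knockouts and 842.4 and 455.3 CPM in the controls. Ptgs2, which makes prostaglandins, was high in knockout 1 alone, at 4042 and 664.3 CPM in the knockouts and 764.7 and 813.8 CPM in the controls. Under the scaling to macrophage and monocyte markers, 9 of the 13 were positive, with a median of 0.24. The median over all genes was -0.75 under this scaling, and the share of all genes that were positive was not computed.

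**Figure D5:**
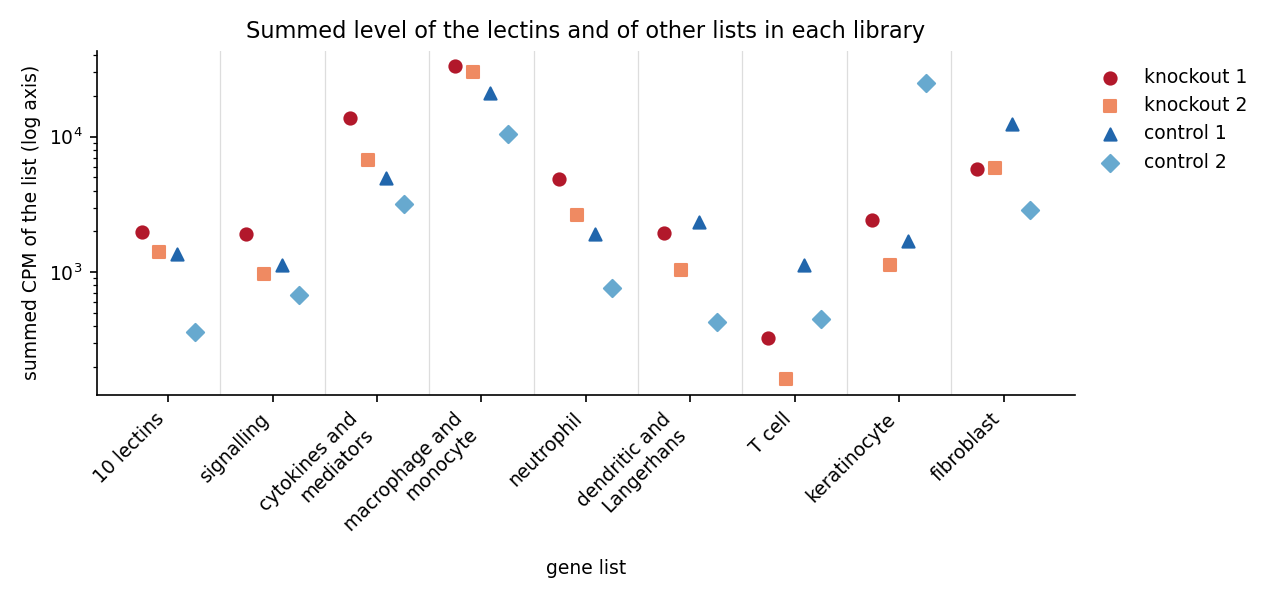
Summed CPM, on a log axis, of the 10 lectins, their signalling partners, the cytokines and mediators, and markers of macrophages and monocytes, neutrophils, dendritic and Langerhans cells, T cells, keratinocytes and fibroblasts, with 1 point per library. Both knockouts lie above both controls for the cytokines and mediators, the macrophage and monocyte markers and the neutrophil markers. For the lectins they do so only just, with knockout 2 at 1417 and control 1 at 1355 CPM. Both lie below for T cell markers, while control 2 is highest for keratinocyte markers.

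Other C-type lectin receptors had log2 fold changes of both signs. Of 32 genes, 22 were tested, 15 with a positive and 7 with a negative log2 fold change (median 0.31), where 56.9% of all genes were positive. Both knockouts lay above both controls for 5 and below both for 4, against 19.5% and 11.2% of all genes. Without control 2 the median was -0.067, and 6 had both knockouts above and 10 both below control 1, where 28.8% and 31.5% of all genes did. None passed the test in edgeR or limma-voom (4 at an unadjusted p under 0.05 in each, where edgeR had 187 and limma-voom 236 of all 12434 genes). DESeq2 called 1 and had 3 at that unadjusted threshold, where it had 427 of all genes. Olr1, a scavenger receptor for oxidised lipoprotein, was at 444.8 and 187.9 CPM in the knockouts and 80.1 and 33.8 CPM in the controls (log2 fold change 2.47, standard error 0.82, or 1.97 without control 2). Cd93, of myeloid and endothelial cells, was at 692.9 and 458.4 CPM in the knockouts and 211.5 and 66.8 CPM in the controls (2.05, standard error 0.76, or 1.44 without control 2). Clec1b had 38 fragments in each knockout and 0 in each control (adjusted p = 0.9997 by edgeR). With 3 fragments per library as the floor, this is at least 12.8-fold higher, for counting error only. Control 2 had no fragment for 19 of the 32 genes, against 4 to 6 in the other libraries. Cd207, the lectin of Langerhans cells, was at 563.1 and 183.9 CPM in the knockouts and 391.8 and 133.0 CPM in the controls, and Selplg, a ligand of selectins, at 1102 and 763.6 CPM in the knockouts and 1048 and 250.5 CPM in the controls, both with overlap.

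The genes whose pattern over the 4 libraries was nearest to the mean pattern of the 5 lectins with a mean of at least 20 CPM (Clec4d, Clec4e, Clec4a1, Clec4a2 and Clec12a) were Ms4a6d, Ik, Cflar, Slfn2 and Slc35f6. Likeness was measured as the root mean square distance of centred log2(CPM + 1) over 4 libraries, among 5666 other genes, and was 0.047 for Ms4a6d and 0.10 to 0.12 for the other 4. Ms4a6d, a membrane protein of macrophages, was at 1175 and 962.9 CPM in the knockouts and 579.6 and 167.4 CPM in the controls. The lectins themselves lay 0.39 to 0.60 from their mean, which is not comparable with the distances of these genes, picked as the nearest. Clec4d was the farthest at 0.60, with both knockouts at 1.34 and 1.49 above its own mean and both controls at -0.94 and -1.89. Clec4a1 was the nearest at 0.39, with the knockouts at 0.80 and 0.26, control 1 at 0.43 and control 2 at -1.49.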

How the data were processed

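Per the file headers, the deposited values are raw fragment counts per exon entry, made with featureCounts 2.0.1 on GENCODE M23 from paired alignments to GRCm38, without strand. The submitters' processing notes name STAR 2.7.9a and Trim Galore 0.6.7. No molecular identifiers are described, so intervals cover counting error only. Here, entries were summed by gene and matched to symbols for 55154 of 55335 genes. GENCODE M21 gave transcript types and covers 99.7% of the entries. Exons given only to retained-intron transcripts held 8.30% of all fragments. No column of another series was present.

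Knockouts were compared with controls in edgeR 4.0.16 under R 4.3.3, by its quasi-likelihood test with default settings, TMM scaling, no covariates and genes kept by filterByExpr (minimum count 10), and p-values were Benjamini-Hochberg adjusted over 12434 genes, two-sided, with 0.05 as the threshold. Standard errors were derived from the fold change and its F statistic. DESeq2 1.42.0 and limma-voom 3.58.1 were alternatives. The code was tested on simulated data. Libraries were numbered in accession order only to name them. Named genes are the lectins, Mettl3, the 3 genes with the highest mean CPM and the 3 with the lowest p of each of 4 pathway lists, the gene of highest mean CPM in each marker list, left out of the text where it does not bear on the lectins, and the 5 genes of nearest pattern. A gene that this rule names is not reported here. The members and lists were chosen with earlier results of these data known.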

Additional observations from a re-analysis of the deposited data

How the results depend on the processing

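The 0 genes called by edgeR became 17 with DESeq2 (4 higher, 13 lower) and 27 without a low-count filter (8 higher, 19 lower), and 0 to 4 with 1 library left out (2 without knockout 1, 4 without knockout 2). No lectin was among the calls in any of 14 alternatives. Among those that kept all 4 libraries, the lowest adjusted p of a lectin was 0.6628 (Clec4d, DESeq2). Clec4d (1.79 to 3.43), Clec4e (1.61 to 3.53), Clec4a2 (0.32 to 3.78) and Clec5a (0.77 to 9.91) kept a positive log2 fold change in all 14. The 3.78 and 9.91 came without control 1. They rest on 10 fragments of Clec4a2 and 0 of Clec5a in control 2, so their size is not reliable. Leaving out 1 library gave the lectins a median of 0.25 to 2.78, the highest, 2.78, without control 1, where the median over all genes was 1.72. Clec10a reversed to -0.46 without knockout 1, -0.08 without control 2, -0.53 with marker scaling and -0.25 without control 2 and retained-intron exons, and was at most 1.34, without control 1. Clec4a3 reversed to -1.30, -0.16, -0.44 and -0.095 in the same settings, and was at most 1.70, without control 1. Clec4a1 (-0.086) and Clec12a (-0.28) reversed with marker scaling only. The cause was not tested. The setting without both control 2 and retained-intron exons, the count against control 1 alone and edgeR with bias-adjusted deviance were chosen after seeing the data; the planned legacy form of edgeR is the default of this version and so no alternative. A setting that leaves 1 library in a genotype takes its spread from the other. No paired analysis was possible because the labels number no replicates.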
